A study of Homo sapiens with 8 samples.

Results

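The regions described here are stretches of chromatin that appeared in both of the study's tables, one made with an antibody against P300 and the other with an antibody against RBBP4. A pair was taken wherever a P300 region and an RBBP4 region lay on the same chromosome and overlapped by at least 1 bp. The members were thus selected on the authors' p-values, since both tables list only regions past a p-value threshold, and on position. This gave 317 pairs, made of 317 P300 regions and 317 RBBP4 regions, so that no region belonged to more than 1 pair. They were 1.55% of the 20496 listed P300 regions (95% exact Clopper-Pearson interval 1.38% to 1.73%) and 0.902% of the 35154 listed RBBP4 regions (0.806% to 1.01%).

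The cells were NCI-H69, a long-established line from a human small cell lung cancer. They received small interfering RNA (siRNA) against CSNK2B, which encodes the beta (regulatory) subunit of casein kinase 2, or a non-targeting siRNA, both delivered with Lipofectamine RNAiMAX, and both arms were fixed in 1% formaldehyde for 10 min at 48 h. The 4 libraries used were the P300 and the RBBP4 immunoprecipitate of the knockdown arm and the same of the control arm, each sequenced once, and the 4 input libraries were not analysed here. No difference therefore has a replicate check, and no test of the conditions was made. Every interval in the text covers counting error only, of reads for a fold and of regions taken as independent for a share. None covers the spread between samples. Reads that are copies of 1 molecule were not told apart, and where present they make the fold intervals too narrow. The batch tag in the labels names the antibody, so antibody and batch cannot be told apart. The arm of each column was read from its name alone, which for RBBP4 is only S2 for the knockdown and C1 for the control. If those 2 columns were exchanged, each RBBP4 direction would turn. These data hold no measure of CSNK2B itself, and no pair lay in or near any of the 4 casein kinase 2 genes.

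P300 is a large acetyltransferase that is brought to promoters and enhancers by transcription factors, acetylates histone tails there and serves as a scaffold for other coactivators. RBBP4 is a small WD-repeat protein that binds histones H3 and H4 and forms part of histone deacetylase, nucleosome remodelling, Polycomb and chromatin assembly complexes. The protein kinase CK2, of which the CSNK2B product is the regulatory subunit, phosphorylates a wide range of nuclear and cytoplasmic proteins. A shared region here is a place where a listed P300 region and a listed RBBP4 region overlapped, in different immunoprecipitates of the same kind of cells. The lists hold differences between arms, and presence of both proteins at the same bases was not tested.

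Several pairs lay directly over the start of a gene, and their sequences are shown here because all but 1 of the 37 pairs over an annotated promoter had more RBBP4 reads after knockdown, while P300 went either way. Direction was part of how the regions were chosen, and 93.3% of all listed RBBP4 regions near gene ends were higher, so this count lies near the share of the whole table. RefSeq (GRCh38.p14) gives for each gene a window from 250 bases before to 50 bases after its start. The 37 pairs overlapped the windows of 39 genes. P300 and RBBP4 were both higher after knockdown in 18 of these pairs, P300 was lower and RBBP4 higher in 18, both were lower in 1, and no pair with P300 higher and RBBP4 lower touched a window. The windows below are some of those that had at least 100 of their 300 bases inside the overlap. They run 5′ to 3′ on the gene's own strand, and capitals mark the GC box GGGCGG or its complement CCGCCC and the ETS family core CCGGAAG or its complement CTTCCGG. A marked stretch need not lie inside the overlap, and all those of FARS2 and the ETS core of ATP5PF lie outside it. The first 3 windows lay in pairs in which both signals were higher, the next 3 in pairs with P300 lower and RBBP4 higher, and the last in the single pair with both lower. Of the qualifying windows not shown with both higher, those of TIMM23B and SLC67A1 held the ETS core. Those of CCDC142, JPH2, C4orf36 and MAPDA did not. With P300 lower and RBBP4 higher, POGK and another ADAR window held it, and LIG1 and NAT10 did not.
LARP7: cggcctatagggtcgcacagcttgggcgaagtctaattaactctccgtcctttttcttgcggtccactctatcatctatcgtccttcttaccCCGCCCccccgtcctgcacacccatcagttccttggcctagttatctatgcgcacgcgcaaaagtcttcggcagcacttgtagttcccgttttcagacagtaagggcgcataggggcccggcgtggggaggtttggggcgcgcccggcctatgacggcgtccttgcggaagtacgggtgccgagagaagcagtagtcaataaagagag
SETD9: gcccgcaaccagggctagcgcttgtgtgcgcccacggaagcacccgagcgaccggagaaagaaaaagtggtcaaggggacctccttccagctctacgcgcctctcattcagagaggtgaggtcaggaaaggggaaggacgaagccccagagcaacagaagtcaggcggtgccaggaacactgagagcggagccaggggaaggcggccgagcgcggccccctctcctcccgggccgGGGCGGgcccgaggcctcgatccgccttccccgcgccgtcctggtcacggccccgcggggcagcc
FARS2: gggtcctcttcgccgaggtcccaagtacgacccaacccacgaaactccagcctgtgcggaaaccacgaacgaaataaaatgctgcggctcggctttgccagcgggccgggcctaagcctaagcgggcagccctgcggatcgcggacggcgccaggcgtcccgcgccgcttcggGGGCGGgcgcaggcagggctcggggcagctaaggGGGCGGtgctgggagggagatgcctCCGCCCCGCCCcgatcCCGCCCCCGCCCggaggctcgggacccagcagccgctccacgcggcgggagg
ADAR: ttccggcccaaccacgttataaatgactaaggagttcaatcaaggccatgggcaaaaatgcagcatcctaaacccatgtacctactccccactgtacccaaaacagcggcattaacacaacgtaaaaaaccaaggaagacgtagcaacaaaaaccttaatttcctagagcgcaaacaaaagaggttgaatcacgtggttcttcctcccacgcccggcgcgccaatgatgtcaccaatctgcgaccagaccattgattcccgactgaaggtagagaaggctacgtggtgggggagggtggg
ATP5PF: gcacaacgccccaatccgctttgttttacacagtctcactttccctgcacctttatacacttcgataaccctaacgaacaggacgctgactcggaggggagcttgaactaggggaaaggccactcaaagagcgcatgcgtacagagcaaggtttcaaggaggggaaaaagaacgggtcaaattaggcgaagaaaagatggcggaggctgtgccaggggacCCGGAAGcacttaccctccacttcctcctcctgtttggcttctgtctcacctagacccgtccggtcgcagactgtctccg
TSC1: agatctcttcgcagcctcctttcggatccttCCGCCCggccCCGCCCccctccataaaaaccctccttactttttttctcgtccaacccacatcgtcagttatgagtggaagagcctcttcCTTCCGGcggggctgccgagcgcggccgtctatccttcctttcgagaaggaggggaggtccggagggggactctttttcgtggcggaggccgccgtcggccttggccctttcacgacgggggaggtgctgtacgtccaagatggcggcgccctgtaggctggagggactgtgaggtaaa
LCE2B: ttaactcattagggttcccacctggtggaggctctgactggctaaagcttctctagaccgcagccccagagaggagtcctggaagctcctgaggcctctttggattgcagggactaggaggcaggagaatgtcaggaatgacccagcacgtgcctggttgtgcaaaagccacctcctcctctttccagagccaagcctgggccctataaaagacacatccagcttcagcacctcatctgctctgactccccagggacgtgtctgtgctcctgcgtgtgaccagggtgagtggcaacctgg

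These windows were, in the same order, chr4:112637252-112637551 (plus strand), chr5:56909346-56909645 (plus), chr6:5260757-5261056 (plus), chr1:154627922-154628221 (minus), chr21:25735005-25735304 (minus), chr9:132944567-132944866 (minus) and chr1:152685873-152686172 (plus). LARP7, which binds the small nuclear RNA that restrains transcription elongation, had 14 P300 reads after knockdown and 0 in the control, and 48 and 10 RBBP4 reads. SETD9, a SET domain protein, had 22 and 7 P300 reads and 28 and 7 RBBP4 reads. FARS2, a mitochondrial phenylalanyl-tRNA synthetase that shares its promoter with the iron-sulfur cluster gene LYRM4, had 24 and 5 P300 reads and 20 and 5 RBBP4 reads. In these 3 pairs the knockdown library held the larger count for both antibodies.

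The lower P300 windows had the opposite order for that antibody. ADAR, which deaminates adenosine in double-stranded RNA, had 7 P300 reads after knockdown and 16 in the control, and 45 and 5 RBBP4 reads. ATP5PF, a coupling factor of mitochondrial ATP synthase that starts beside the ETS family gene GABPA, had 12 and 26 P300 reads and 25 and 1 RBBP4 reads. TSC1, a brake on mTOR signalling, had 4 and 17 P300 reads and 37 and 3 RBBP4 reads. LCE2B, a cornified envelope gene of skin, was the exception for RBBP4, with 1 and 8 P300 reads and 1 and 9 RBBP4 reads. Its window, like the ADAR window shown, holds no GC box and no ETS core. The LCE2B window holds 4 CpG dinucleotides, against 24, 28, 37, 14, 16 and 25 in the other 6 shown. Another ADAR window in the same pair, chr1:154627948-154628247, had 210 bases in the overlap and does hold the ETS core.

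Short motifs were searched on both strands in the 44 windows that the pairs overlapped and in all 22078 windows of protein-coding genes. Each window was searched whole, though the overlap held from 2 of its bases (FAAP24) to 300 (TSC1). A match may thus lie outside the shared bases, and motifs within the overlaps alone were not counted. The ETS core CCGGAAG was in 34.1% of the windows of pairs and 12.8% of all windows. Among the pairs' windows it was in 5 of the 23 with P300 higher and in 10 of the 21 with P300 lower, which include overlapping ATP5PF windows of the same pair. The GC box GGGCGG was in 72.7% against 56.3%, the E-box CACGTG in 11.4% against 8.32%, TATAAA in 15.9% against 9.50% and the cyclic AMP element TGACGTCA in 4.55% against 2.25%. CCAAT was at 34.1% against 34.7%. The 5 windows with CACGTG were all in pairs with P300 lower, at ADAR, NAT10, POGK and LCE2B. Those of ADAR overlap each other in the same pair. The NRF1 palindrome was in none of the 44 and 1.48% of all. Of these motifs, TGACGTCA, CACGTG and the NRF1 palindrome read the same on both strands, and none holds another. The median GC content was 63.7% against 62.3%, and the median number of CpG dinucleotides 26 against 21. Several windows of 1 gene or of 2 genes sharing a start overlap one another, so the 44 are not independent, and a match describes letters only. Windows over all listed regions of either antibody were not searched as a set. How far these shares go with being listed at all was therefore not tested.

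Each table lists only regions with an unadjusted p-value below 0.05 in the authors' comparison of knockdown and control, and a region's name carries the arm in which its peak was called. The direction of a pair was therefore part of how it was chosen, and the counts of directions are a description. P300 was higher after knockdown in 133 of the 317 pairs (42.0%, 36.5% to 47.6%), where 34.7% of all listed P300 regions were higher. RBBP4 was higher in 226 (71.3%, 66.0% to 76.2%), where 68.8% of all listed RBBP4 regions were higher. The direction was that of the arm in the region's name in all 317 pairs for both antibodies. Both signals were higher in 101 pairs (31.9%, 26.8% to 37.3%), P300 was lower and RBBP4 higher in 125 (39.4%, 34.0% to 45.0%), both were lower in 59 (18.6%, 14.5% to 23.3%), and P300 was higher with RBBP4 lower in 32 (10.1%, 7.01% to 14.0%).

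The antibodies went the same way in 160 pairs and opposite ways in 157. RBBP4 was higher in 101 of the 133 pairs with P300 higher (75.9%, 67.8% to 82.9%). With P300 lower, RBBP4 was higher in 125 of the 184 (67.9%, 60.7% to 74.6%). These intervals cover the counting of regions only, and each antibody and arm had 1 library. Direction was also part of how the regions were chosen. Whether the direction of RBBP4 depends on that of P300 was therefore not tested. Across the 317 pairs the log2 ratio of knockdown to control RPKM (reads scaled by region length and library total, pseudocount 1) had a Pearson correlation of 0.08 and a Spearman correlation of 0.06 between the antibodies. That correlation is across regions, which share their 4 libraries and are not replicates. The plot of both ratios shows the 4 groups apart from the axes, because regions with small differences are not in the tables.

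**Figure D1:**
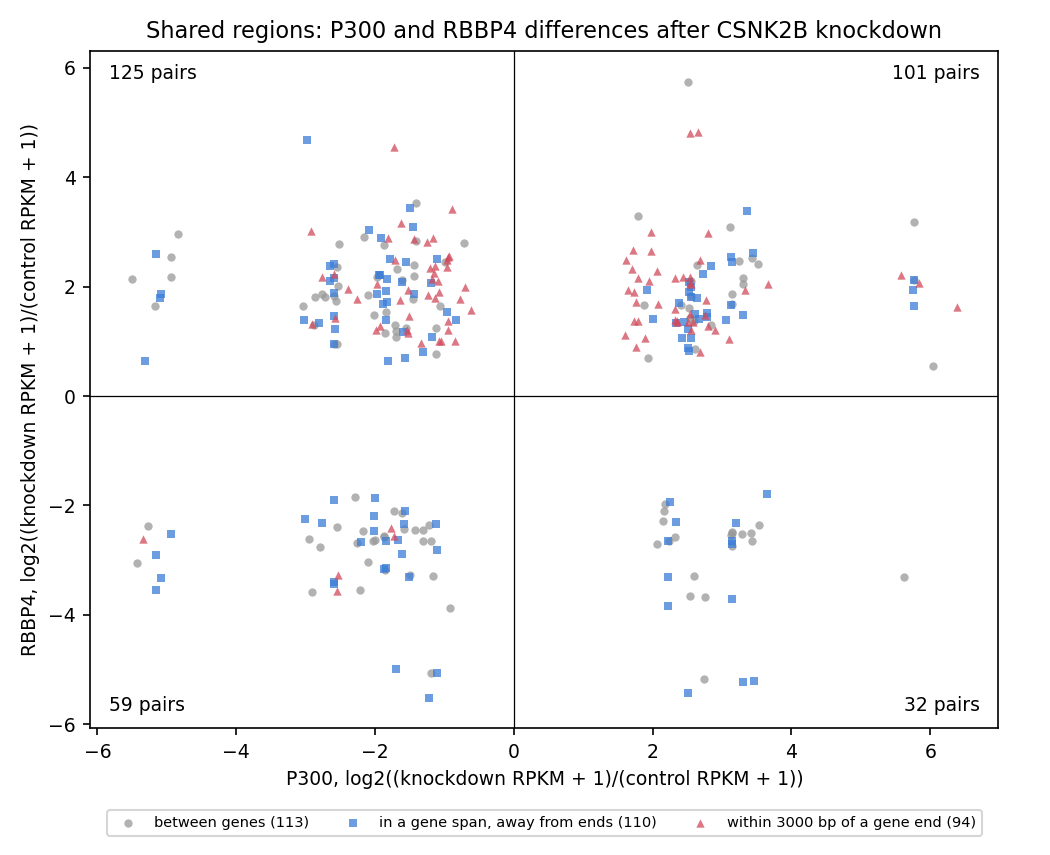
Each point is 1 of the 317 pairs, with the log2 ratio of knockdown over control (RPKM plus 1) for P300 on the horizontal axis and for RBBP4 on the vertical axis, coloured by location. The 94 pairs near a gene end, drawn as triangles, lie mostly in the upper quadrants, with 5 in the lower left quadrant and 0 in the lower right.

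The counts behind these ratios were small. The 2 P300 libraries together gave a median of 14 reads per pair (6 to 56) and the 2 RBBP4 libraries 24 (8 to 693). By library the medians were 6 P300 reads after knockdown and 9 in the control, and 19 RBBP4 reads after knockdown and 8 in the control. In the pairs with both higher the medians were 13 and 2 for P300 and 26 and 5 for RBBP4. In those with P300 lower and RBBP4 higher they were 3 and 13, and 27 and 5. Where both were lower they were 2 and 11, and 2 and 12, and where P300 was higher and RBBP4 lower, 12.5 and 1.5, and 2 and 13. A P300 library had 0 reads in 26 pairs and an RBBP4 library in 13.

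Scaled to the reads of each table, the fold had a 95% exact interval that left out 1 for all 133 pairs with P300 higher (100% of all listed P300 regions that were higher), but for 43 of the 125 pairs with P300 lower and RBBP4 higher and 20 of the 59 with both lower (42.6% of all listed P300 regions that were lower). For RBBP4 it left out 1 in all 91 pairs that were lower (100% of the listed lower regions), in 79 of the 101 with both higher and in 96 of the 125 with RBBP4 higher alone (65.5% of the listed higher regions). Both intervals left out 1 in 169 pairs, of which 79 had both higher, 32 had P300 higher and RBBP4 lower, 38 the reverse and 20 both lower. The log2 fold changes of the authors' deposited table are scaled otherwise and lie 0.44 below these log2 ratios for P300 and 0.58 above them for RBBP4, which turned no pair's direction. Regions were listed by the authors' comparison, and the intervals here use the other scaling. The shares of intervals that left out 1 therefore do not rank 1 direction as better supported than the other. How far the shift sets these shares was not tested.

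In the authors' deposited table for RBBP4, 217 of the 317 pairs had an adjusted p below 0.05 (68.5%), where 57.3% of all listed regions did. Of the higher pairs 184 of 226 passed in the authors' deposited table (81.4%, against 70.3% of all listed higher regions), and of the lower pairs 33 of 91 (36.3%, against 28.6%). Of the 95329 regions that the adjusted values imply were tested, 17.8% passed as higher and 3.30% as lower in the authors' deposited table. For P300 no pair passed in the authors' deposited table, and 0% of the regions tested did. The unadjusted P300 p-values of the pairs in the authors' deposited table ran from 0.000352 to 0.0490, and the adjusted ones from 0.260 to 0.311. These are values from 1 library per arm.

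The share of pairs near a gene end was above that of both tables. Of the 317 pairs, 94 (29.7%, 24.7% to 35.0%) were within 3000 bp of either end of a protein-coding gene, against 5.39% of listed P300 regions and 22.4% of listed RBBP4 regions. A further 110 (34.7%) were in the span of a gene but away from its ends, and 35.6% were between genes, where 55.3% of listed P300 and 42.5% of listed RBBP4 regions lay. Of the latter, 30 were in the span of a long non-coding RNA gene. Seen from the P300 table, 94 of 1105 regions near gene ends overlapped an RBBP4 region (8.51%), compared with 223 of 19391 away from them (1.15%). From the RBBP4 table the shares were 1.21% of 7870 and 0.814% of 27284. The gene table gives no strand or exons, so the end of a gene here may be its start or its finish, and exon, intron and UTR are not given.

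Most of the pairs near a gene end were near a start. No promoter window was used for chromosome 8. Elsewhere 65 of 89 such pairs (73.0%) were within 1000 bp of a gene start, and 20 were more than 3000 bp from any start in the promoter table, which covered 15843 of 19341 protein-coding genes. Over all pairs outside chromosome 8, 70 of 301 (23.3%, 18.6% to 28.4%) were within 1000 bp of a start, against 1.59% of listed P300 and 15.9% of listed RBBP4 regions. The 5 of these 70 that were not near a gene end lay by a start inside a longer gene. Ends of more than 1 gene were within reach for 31 pairs, and these cannot be assigned to a single gene.

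Location and direction went together for RBBP4 and less for P300. Near gene ends RBBP4 was higher in 89 of 94 pairs (94.7%), where 93.3% of all listed RBBP4 regions near gene ends were higher. Away from ends it was higher in 137 of 223 (61.4%, against 61.7% of the listed regions there). P300 was higher in 45 of the 94 near ends (47.9%, 37.5% to 58.4%, against 38.2% of the listed regions there) and in 88 of the 223 away (39.5%, against 34.5%). The RBBP4 shares of the pairs thus lay close to those of the whole RBBP4 table at the same kind of place. By combination, 45 of the 101 pairs with both higher were near a gene end (44.6%, 34.7% to 54.8%), 44 of the 125 with P300 lower and RBBP4 higher (35.2%, 26.9% to 44.2%), 5 of the 59 with both lower (8.47%, 2.81% to 18.7%) and 0 of the 32 with P300 higher and RBBP4 lower (an upper bound of 10.9%).

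**Figure D2:**
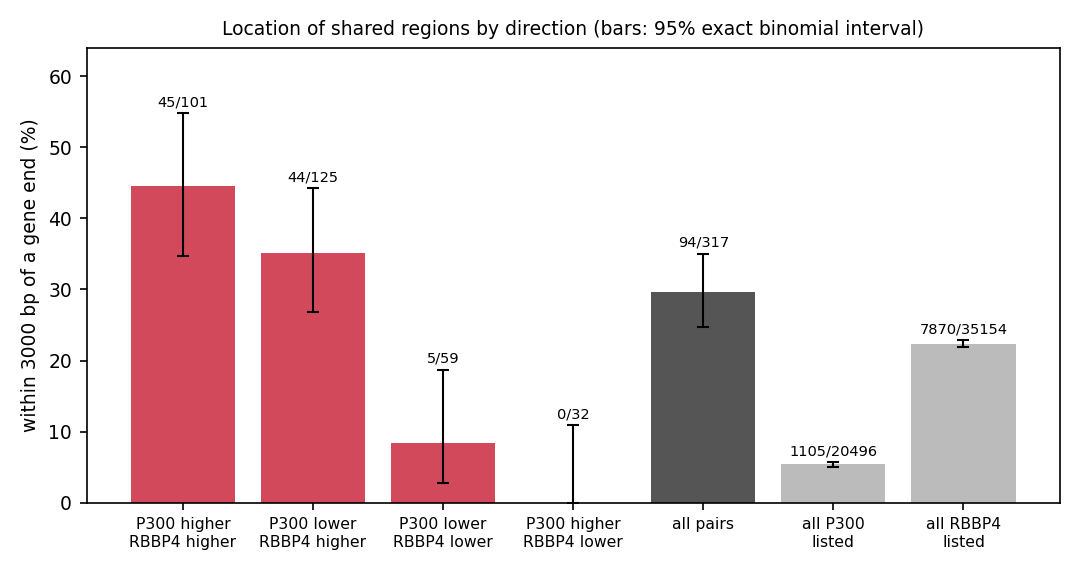
Bars give the percent of regions that lay no more than 3000 bp from a protein-coding gene's end, for the 4 direction combinations (red), all 317 pairs (dark grey) and all listed regions of each table (light grey), with 95% exact binomial intervals and counts above. The 2 combinations with RBBP4 higher stand at 44.6% and 35.2%, and those with RBBP4 lower at 8.47% and 0%.

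The regions of the pairs were wider than their tables for RBBP4 and little different for P300. The median RBBP4 width was 541 bp in pairs and 429 bp in the table, and the median P300 width 251 bp and 241 bp. RBBP4 regions were wider where RBBP4 was higher (medians 606 and 666 bp in the 2 combinations) than where it was lower (383.5 and 376 bp). The overlap had a median of 187 bp (5 to 654 bp), the P300 region lay wholly inside the RBBP4 region in 114 pairs, and the midpoints were a median of 200.5 bp apart. A wider region has more room to overlap another, and its part in the number of pairs was not tested.

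The overlap rule set a sharp edge. Just inside it, a pair at CDC40, a splicing factor gene, overlapped by 5 bp, with 12 and 2 P300 reads and 10 and 0 RBBP4 reads, and pairs at CTNNA2, FOXN4, PRG4 and NDFIP1 overlapped by 11, 13, 15 and 17 bp. Just outside it, regions at YLPM1 touched with no base in common, with 14 and 2 P300 reads and 26 and 7 RBBP4 reads, and those at C2orf42, RBBP8, AKAIN1 and SNAP25 were 1, 3, 8 and 11 bp apart. There were 38 further pairs less than 50 bp apart and 63 less than 100 bp apart, and these are not members.

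Pairs fell on all 22 autosomes, and none on X, where 502 P300 and 485 RBBP4 regions were listed. Chromosomes 1, 2 and 7 held the most, with 29 each, and chromosome 14 held 21, or 2.72% of its listed P300 regions. Chromosome 13 held 2, or 0.483%. The long arm of chromosome 8 between CSMD3 and PVT1 held 6 pairs, at CSMD3, UTP23, CCN3, SNTB1, ATAD2 and in PVT1. They had a median of 240 RBBP4 reads per kb over both libraries, against 43.7 in the other pairs, and 54.6 P300 reads per kb against 54.3. The RBBP4 read totals of the pairs named there go with that density, whose part in their fold was not tested.

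Among pairs near gene ends with both signals higher, the largest read totals came from this stretch. SNTB1, a syntrophin of the dystrophin complex, had a pair 58 bp from its end (chr8:120811767-120811988) with 9 P300 reads after knockdown and 1 in the control, and 520 and 173 RBBP4 reads. The P300 count was 10.4-fold higher (1.44 to 456) and the RBBP4 count 2.07-fold higher (1.74 to 2.48). CCN3, a secreted matricellular protein, had 11 and 2 P300 reads and 227 and 61 RBBP4 reads 208 bp from its end (chr8:119415988-119416238), which were 6.35-fold (1.39 to 59.0) and 2.57-fold higher (1.93 to 3.46). The RBBP4 ratio is thus narrowly bounded at both, and the P300 ratio is not.

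The other leading pairs of this kind had more even totals. CHMP3, a subunit of the ESCRT membrane-scission machinery, held the most P300 reads of any pair after knockdown, 40 against 15 in the control (3.08-fold, 1.66 to 6.0), with 29 and 9 RBBP4 reads (2.22-fold, 1.02 to 5.34), at chr2:86563144-86563257. SETDB1, which methylates histone H3 in silent chromatin, had 27 and 10 P300 reads (3.12-fold, 1.46 to 7.22) and 35 and 4 RBBP4 reads (6.04-fold, 2.16 to 23.4), 56 bp from a start (chr1:150926419-150926605). ECPAS, a proteasome adaptor, had 28 and 10 P300 reads and 47 and 8 RBBP4 reads (3.23-fold and 4.05-fold, chr9:111483239-111483312). In these 3 pairs both intervals left out 1. Among all listed regions that were higher, the interval left out 1 for 100% in P300 and 65.5% in RBBP4.

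Counts of the same order were seen at ARMH3, with 13 and 2 P300 reads and 67 and 13 RBBP4 reads (chr10:102055707-102055926), and by the ends of ACIN1, an RNA-processing factor, and C14orf119, with 21 and 7, and 47 and 9 (chr14:23094880-23095099). CPO, a carboxypeptidase gene 2926 bp away from its pair, had 11 and 2 P300 reads and 125 and 18 RBBP4 reads (chr2:206936392-206936592). The glycyl-tRNA synthetase gene GARS1 had 21 and 6, and 39 and 6, and VPS13A, a lipid transfer protein, had 17 and 3, and 39 and 10. The remaining pairs of this combination near gene ends included the mRNA processing genes SRRM2, IWS1 and RBM26, the deubiquitinases USP8 and USP42, the DNA polymerase gene POLE and the poly(ADP-ribose) glycohydrolase gene PARG. Their P300 reads after knockdown lay between 9 and 40 in all 101 pairs with both higher, and the control reads between 0 and 15.

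Near gene ends with P300 lower and RBBP4 higher, RBBP4 reads were the larger counts after knockdown and P300 reads in the control. UTP23, which helps process ribosomal RNA and has an end of the initiation factor gene EIF3H within reach, had 6 P300 reads after knockdown and 15 in the control, and 74 and 25 RBBP4 reads (chr8:116766611-116766905). RBBP4 was 2.04-fold higher (1.3 to 3.35), and the P300 count was 2.17-fold lower with an interval that held 1 (0.794 to 6.81). CYCS, cytochrome c, had 5 and 13 P300 reads and 52 and 7 RBBP4 reads (5.12-fold higher, 2.32 to 13.4, at chr7:25125137-25125166). The control P300 library was the higher one in both, while the knockdown RBBP4 library was.

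Further pairs of this combination lay at FAM174C, beside the cold-inducible gene CIRBP, with 1 and 10 P300 reads (8.66-fold lower, 1.23 to 376) and 53 and 14 RBBP4 reads (2.61-fold higher, 1.43 to 5.10, at chr19:1275568-1275761). ADM, the vasodilator adrenomedullin, had 3 and 12 P300 reads (3.46-fold lower, 0.935 to 19.1) and 54 and 6 RBBP4 reads (6.21-fold higher, 2.67 to 17.7, at chr11:10307477-10307746). SUV39H2, a histone H3 methyltransferase, had 3 and 14, and 41 and 11. The P300 interval held 1 at ADM and not at the other two. Also in this group were the splicing kinase CLK1 with 12 and 24 P300 reads, the ribosomal protein gene RPL37 with 8 and 18, and NAT10, an RNA acetyltransferase, with 5 and 17, all with more RBBP4 reads after knockdown.

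**Figure D3:**
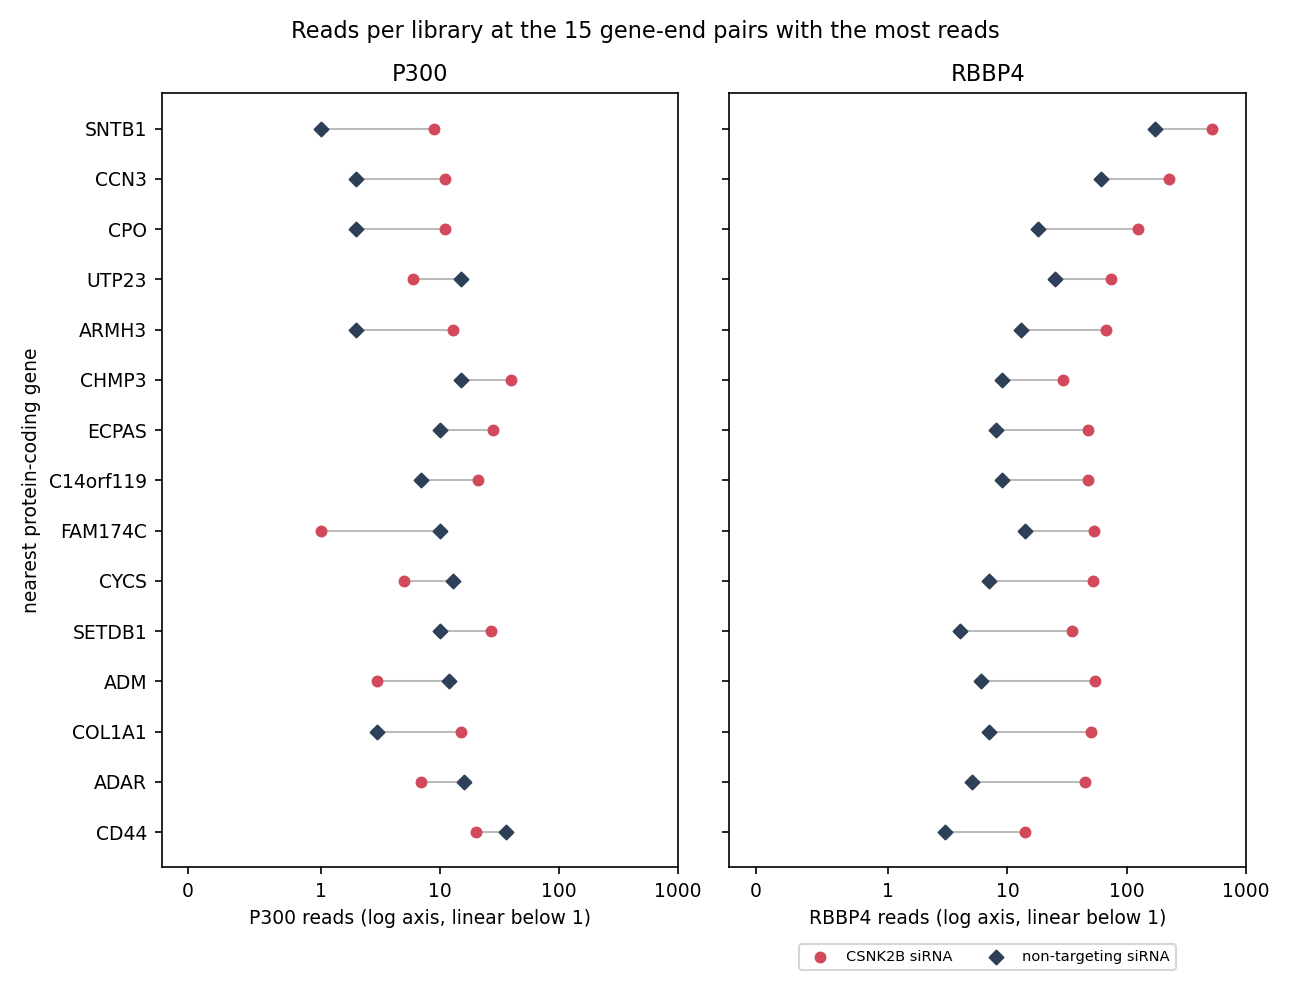
Reads in each library at the 15 pairs near a gene end with the most reads, for P300 (left) and RBBP4 (right), on a log axis that is linear below 1, with circles for CSNK2B siRNA and diamonds for non-targeting siRNA. The RBBP4 circle lies right of the diamond in every row, while the P300 circle lies right of it in some rows (CHMP3, 40 and 15) and left in others (CD44, 20 and 36).

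The 5 pairs near gene ends with both signals lower were at CLIP4, a microtubule-linked protein, ACTR5, a subunit of the INO80 remodeller, DRD1, a dopamine receptor, SLC30A4, a zinc transporter, and LCE2B. CLIP4 had 3 P300 reads after knockdown and 12 in the control, and 4 and 19 RBBP4 reads (chr2:29184222-29184239). ACTR5 had 3 and 13 for both antibodies, and DRD1 had 1 and 8, and 1 and 11. SLC30A4 had 0 and 8 P300 reads (an exact lower limit of 1.48-fold lower) and 2 and 10 RBBP4 reads. Only LCE2B of these was within 1000 bp of a start in the promoter table.

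Away from gene ends, the pairs with both higher that had the most reads were inside protein-coding genes or in PVT1. ATAD2, a chromatin-bound bromodomain ATPase, had 13 P300 reads after knockdown and 2 in the control (7.51-fold, 1.70 to 68.5) and 547 and 137 RBBP4 reads (2.75-fold, 2.28 to 3.35), 19665 bp from its end (chr8:123396497-123396685). Its adjusted RBBP4 p of 1.16e-13 was the lowest of all pairs in the authors' deposited table. A pair in the long non-coding RNA gene PVT1, 108861 bp from MYC, had 24 and 7 P300 reads and 231 and 98 RBBP4 reads (chr8:127851812-127852115). A pair inside HOOK2, a microtubule adaptor, 589 bp from one of its starts, had 15 and 3 and 143 and 29 (chr19:12779022-12779393). ABCC9, a regulatory subunit of potassium channels, had 9 and 1, and 126 and 14, with RBBP4 6.21-fold higher (3.57 to 11.7).

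Pairs with P300 lower and RBBP4 higher inside genes were led by CSMD3, a large CUB and Sushi domain protein. It had 0 P300 reads in the knockdown library against 8 in the other. The exact interval for this gave a lower limit of 1.48-fold lower. It had 277 and 122 RBBP4 reads (1.57-fold higher, 1.26 to 1.95, at chr8:113378883-113379070). ZRANB3, which remodels stalled replication forks, had 3 and 13 P300 reads (3.75-fold lower, 1.03 to 20.5) and 90 and 10 RBBP4 reads (6.21-fold higher, 3.22 to 13.4). DYNC1I1, a dynein intermediate chain, had 4 and 14, and 88 and 10, and NELL1, a secreted glycoprotein, had 0 and 11 (an exact lower limit of 2.17-fold lower), and 80 and 15.

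AGTPBP1, which removes glutamates from tubulin tails, was the single protein-coding gene with 2 pairs in its span or within 3000 bp of it, and they differed for RBBP4. The pair 245 bp from one of its starts (chr9:85742274-85742458) had 4 P300 reads after knockdown and 13 in the control, and 82 and 6 RBBP4 reads (9.43-fold higher, 4.15 to 26.4). The other, 22022 bp from a start (chr9:85764051-85764198), had 3 and 11 P300 reads and 4 and 15 RBBP4 reads (5.44-fold lower, 1.73 to 22.5). The P300 counts thus lay in the same order at both, and the RBBP4 counts in opposite orders.

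The 32 pairs with P300 higher and RBBP4 lower were all away from gene ends, and their reads were few. The pair with the most lay 32649 bp from MARCHF10, a ubiquitin ligase gene (chr17:62840963-62841204), with 19 P300 reads after knockdown and 5 in the control (4.39-fold higher, 1.58 to 15) and 3 and 17 RBBP4 reads (8.22-fold lower, 2.38 to 43.8). PLEKHA7, a protein of cell junctions, had 14 and 3 P300 reads and 5 and 20 RBBP4 reads (5.39-fold higher and 5.8-fold lower). COL28A1, a collagen, had 13 and 1, and 8 and 20. SOCS5, a suppressor of cytokine signalling, had 13 and 3, and 6 and 17, TXNDC16 had 13 and 3, and 1 and 16, MARCHF8, another ubiquitin ligase, 10 and 1, and 4 and 16, and PRG4, lubricin, 13 and 3, and 2 and 10. Both intervals left out 1 in all 32 of these pairs. The same held for 100% of all listed P300 regions that were higher and of all listed RBBP4 regions that were lower. No RBBP4 library exceeded 20 reads in these pairs. In this combination 1 of the 32 pairs had at least 20 reads in each table, as did 1 of the 59 with both lower, 27 of the 101 with both higher and 24 of the 125 with P300 lower and RBBP4 higher.

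Both signals were lower at 59 pairs, also mostly far from ends. The pair with the most reads was 272804 bp from COX7C, a cytochrome c oxidase subunit gene (chr5:86893766-86894295), with 6 P300 reads after knockdown and 18 in the control (2.60-fold lower, 0.988 to 8.00) and 5 and 22 RBBP4 reads (6.38-fold lower, 2.36 to 21.6). NRXN3, a presynaptic adhesion protein, had 1 and 9 P300 reads (7.79-fold lower, 1.08 to 342) and 7 and 28 RBBP4 reads (5.8-fold lower, 2.48 to 15.7) at chr14:79804080-79804264. PCNX2 had 2 and 10, and 8 and 22, and CCDC180 5 and 13, and 4 and 15. PALM2AKAP2, a scaffold for protein kinase A, had 0 and 7, and 3 and 27, and CAPRIN2, an RNA-binding protein, 1 and 11, and 5 and 18.

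**Figure D4:**
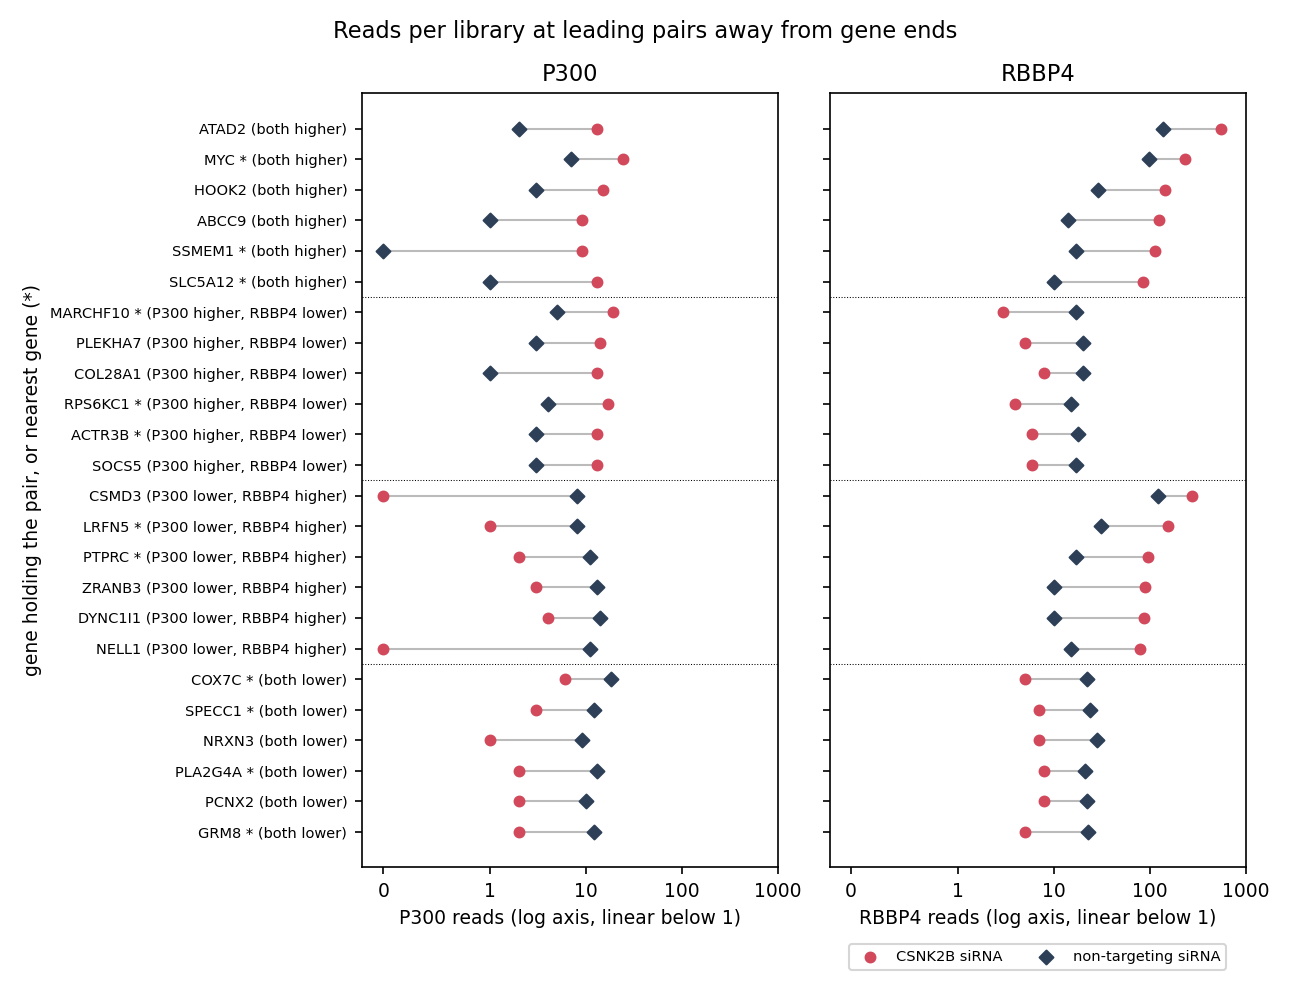
Reads in each library at the 6 pairs with the most reads in each combination that lay away from gene ends, for P300 (left) and RBBP4 (right), on a log axis that is linear below 1; circles are CSNK2B siRNA, diamonds non-targeting siRNA, and an asterisk marks a pair outside any protein-coding gene. RBBP4 reads reach 547 at ATAD2 where RBBP4 was higher, and stay at or below 28 in the rows where it was lower.

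Of 20056 protein-coding genes, 241 (1.20%) had a pair in their span or within 3000 bp. Among 12 gene lists, counts of this kind were small. Of 58 genes of neural cell adhesion and the synapse, 6 had a pair: LRP1B with both higher, CNTN4, CSMD3 and DLGAP1 with P300 lower and RBBP4 higher, and NRXN3 and LRRC4C with both lower. LRP1B, an endocytic receptor, had 12 and 1 P300 reads and 49 and 5 RBBP4 reads, and DLGAP1, a postsynaptic scaffold, had 1 and 8, and 50 and 6. These are long genes, and all 6 pairs lay away from their ends. Of 57 ion channels and transmitter receptors 2 had one. SCN9A, a voltage-gated sodium channel, had 11 and 2 P300 reads and 0 and 11 RBBP4 reads (an exact lower limit of 3.64-fold lower), and the calcium release channel gene RYR2 had 4 and 14, and 20 and 1.

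DNA repair had 3 of 40 genes with a pair, of which 2 are described. FANCC, of the crosslink repair pathway, had 15 and 3 P300 reads and 34 and 11 RBBP4 reads. The ligase gene LIG1, whose pair also touches ZSWIM9, had 5 and 14, and 14 and 1. Of 38 cell cycle and replication genes CDK6 alone had a pair, with 16 and 3, and 12 and 2. Of 35 genes of the non-neuroendocrine and mesenchymal state 2 had a pair at a gene end. ZEB2, a repressor of epithelial genes, had 34 and 9 P300 reads (4.36-fold higher, 2.05 to 10.3) and 17 and 2 RBBP4 reads. CD44, the hyaluronan receptor, had the most control P300 reads of any pair, 20 and 36, with an interval that held 1 (1.56-fold lower, 0.879 to 2.84), and 14 and 3 RBBP4 reads.

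Of 12 fibroblast markers, COL1A1, the main collagen of connective tissue, had a pair 1479 bp from its end, with 15 and 3 P300 reads and 50 and 7 RBBP4 reads. No pair was at any of 43 genes of neuroendocrine identity, 35 genes of complexes that contain RBBP4, 20 histone acetyltransferases and bromodomain readers (ATAD2 was not in that list), 44 genes of the Notch, Wnt and Hippo pathways, or the 11 of 12 T cell markers found in the gene table. Chromatin reads give no expression level, so these counts do not check the identity of the cells.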

How the data were processed

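Per the submitters' processing notes, ChIPseeker 1.28.3, DiffBind 3.4.11, MACS2 2.2.7.1, Bowtie2 2.4.5, Trim Galore 0.6.7 and FastQC were used, with GRCh38; their roles are not given in the sources used here. For each antibody the authors deposited 1 table with RPKM per library. Each region's log2 fold change, p-value and adjusted p-value were computed by the authors, per the file headers.

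RPKM times width and a total per library (P300 knockdown 946392, control 1092789, RBBP4 knockdown 1207945, control 833181) gave whole reads within 0.01 for nearly all regions. For 132 P300 and 596 RBBP4 regions, 7 and 11 of them in pairs, a width was solved that returned the deposited log2 fold change. Direction came from linear RPKM. Folds are ratios of reads scaled by these totals, and where a library had 0 reads the lower limit of the exact interval is given. The recovery and overlap steps were tested on simulated data. Those data used the listed widths, so the solving of a width was not tested. Computation used Python 3.11.15, pandas 2.3.3 and scipy 1.17.1. Genes came from RefSeq GRCh38.p14, with spans but no strand.

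Named pairs were, per combination, the 6 with the most reads in or within 3000 bp of a gene and the 1 with the most reads anywhere, the pairs near gene ends (in full for 12), and up to 3 members of each list. Others (GARS1, VPS13A, SUV39H2, AGTPBP1's second pair and the shown promoters among them) were chosen after their values were seen. Some pairs that the rule names are not reported here. The members and lists were chosen with earlier results of these data known. Alternatives were the overlap rule, p threshold, minimum reads, distance, pseudocount and scaling.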

Additional observations from a re-analysis of the deposited data

How the results depend on the processing

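No paired analysis was possible because each antibody and arm had 1 library; leaving out a library was not possible either. Of 87 alternative values, 59 stayed within the spread or count range set for them and 28 moved. Only medians were checked for a turned direction. The combinations were set by direction, so a changed pseudocount or read limit could not turn them. Leaving out regions in another pair could change no count, since no region was in more than 1 pair. The number of pairs, 317, became 60 with a reciprocal overlap of 50% and 45 with an unadjusted p below 0.01 in both of the authors' deposited tables. At that threshold the combinations held 19 (both higher), 1 (P300 higher, RBBP4 lower), 22 (P300 lower, RBBP4 higher) and 3 (both lower). With at least 20 reads in each table, a limit added after the data were seen, they held 27, 1, 24 and 1. Within 10000 bp, 36.6% of all pairs and 12.5% of those with P300 higher and RBBP4 lower were near a gene end.

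The median log2 ratios with a pseudocount of 1 were, for P300 and RBBP4, 2.55 and 1.80 where both were higher, 2.94 and -2.66 where P300 alone was higher, -1.78 and 1.91 where RBBP4 alone was, and -1.87 and -2.65 where both were lower. With a pseudocount of 5 they were 2.18 and 1.48, 2.28 and -2.09, -1.45 and 1.59, and -1.59 and -2.08; with 0.1 the first was 2.66. By the log2 fold change of the authors' deposited table, which is scaled to other totals, those that moved were 2.16 and 2.41, then -2.21 for RBBP4, -2.28 and 2.56, and -2.33 and -2.21. The cause was not tested.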
